A study of Mus musculus with 9 samples.

Results

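Lysosomes are acidic organelles in which proteins, glycans and lipids are taken apart by soluble hydrolases. A rotary proton pump, the V-ATPase, acidifies the lumen, and glycosylated membrane proteins and exporters line the organelle and release its products. Transcription factors of the MiT/TFE family (Tfeb, Tfe3 and Mitf) can drive many of these genes together through a short promoter element known as CLEAR, and microglia, the phagocytes of the brain, use lysosomes to digest what they engulf. The genes described here are 57 lysosomal genes, named by symbol and taken from the 55335 genes of the deposited table. All 57 had a row in the table. They were grouped by role into 11 proteases, 11 glycosidases, 5 sulfatases and acetyltransferases, 8 lipid hydrolases and their activators, 8 membrane and export proteins, 4 regulators and 10 components of the V-ATPase.

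RNA was sequenced from BV2 cells, an immortalised mouse microglial line labelled wild type, in 9 libraries. The 3 conditions held 3 libraries each: control cells labelled 0 h, cells kept for 24 h at 1% oxygen, and cells given the same low oxygen for 24 h plus ethanolamine at 100 µM, a building block of membrane phospholipids. All groups were grown in DMEM with 10% serum and 5% CO2 at 37 °C, and the labels give no oxygen level for the controls. The series concerns ethanolamine in diabetic retinopathy. Every library comes from 1 cell line, and the labels do not state whether a group's libraries are independent cultures. The p-values therefore reflect library-to-library spread alone, which may be technical. Control and hypoxia differ in labelled time as well as in oxygen, and these cannot be told apart.

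The values were FPKM, fragments scaled to transcript length and library size, which allow levels to be compared between genes per unit of length. Absolute depth is unknown. Low values put the deepest library at 1.32 times the depth of the shallowest, and 11556 to 11924 genes reached 1 FPKM. Ribosomal RNA-like transcripts held 1.84% to 6.03% of all FPKM in control and 6.31% to 9.80% in hypoxia, so their share moved with the comparison. Supplemented library 1 stood at 3.72 on the second principal component, between supplemented libraries 2 and 3 (-17.8 and -21.1) and hypoxia libraries 1 to 3 (5.65, 15.4 and 12.1). Of 10 markers of microglia and macrophages, 9 reached 1 FPKM in at least 1 library, and their summed level was 877 to 1108 FPKM in control, 1208 to 1357 in hypoxia and 1239 to 1295 with ethanolamine. The 4 astrocyte, 3 neuronal, 3 endothelial, 3 fibroblast and 3 oligodendrocyte markers all stayed under 1 FPKM in every library. Of 3 adipocyte markers 2, Adipoq and Plin1, were listed at 0 in all 9 libraries. The sum was carried by Fabp4 alone, at 15.98 to 21.8 FPKM in control, 24.5 to 27.0 in hypoxia and 19.2 to 20.6 with ethanolamine. The part of these differences in the results was not tested. In bulk RNA, fewer expressing cells and less RNA per cell cannot be told apart.

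The promoter sequences below show where the core of the CLEAR element lies in these genes, since it is the shared sequence feature by which the family is best known. The core searched was TCACGTGA, which reads the same on both strands. RefSeq promoters (build GRCm38.p6, 250 bases before to 50 after a transcript start) matched 48 of the 57 genes. Asah1, Atp6v0d2, Atp6v1b2, Atp6v1c1, Atp6v1h, Ctsb, Ctsh, Hgsnat and Npc1 were not matched. The core was present in 6 of the 48 genes (12.5%), against 1.12% of all 27025 genes with a promoter in the table and 2.52% of the 7940 genes that were also tested here. Each window below runs 5′ to 3′ on the gene's strand with the core in capitals. The position is that of the core's first base relative to the RefSeq transcript start, counted as 0. For Ctsa, Ctsd, Gla, Mcoln1 and Atp6v1a that start lies inside the gene's span in GENCODE M21.
Ctsa, protective protein cathepsin A, chr2:164833745-164833782, plus strand, position -13 from an alternative start: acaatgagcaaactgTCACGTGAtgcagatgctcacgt
Ctsa, second core at position 4 from the same start, chr2:164833762-164833799: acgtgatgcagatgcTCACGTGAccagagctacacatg
Ctsd, cathepsin D, chr7:142387904-142387941, minus strand, position -99: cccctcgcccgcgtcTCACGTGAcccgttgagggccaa
Gla, alpha-galactosidase A, chrX:134601211-134601248, minus strand, position -228: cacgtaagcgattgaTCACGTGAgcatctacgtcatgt
Gla, second core at position -195, chrX:134601178-134601215: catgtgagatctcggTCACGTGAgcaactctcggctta
Mcoln1, the calcium channel mucolipin 1, chr8:3500458-3500495, plus strand, position -46: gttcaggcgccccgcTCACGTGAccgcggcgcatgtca
Atp6v0d1, a V-ATPase subunit, chr8:105566046-105566083, minus strand, position -4: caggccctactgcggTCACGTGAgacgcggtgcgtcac
Atp6v1a, the catalytic V-ATPase subunit, chr16:44139369-44139406, minus strand, position -132: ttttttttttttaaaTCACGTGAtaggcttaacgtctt
The shorter E-box CACGTG, contained in that core, was present in 14 of 48 genes (29.2%), against 12.6% of tested genes and 8.09% of all. The letters ACGTG are a form of the core of the hypoxia response element and part of every CACGTG. On either strand they were present in 19 of 48 genes (39.6%), against 30.7% and 21.8%. The form GCGTG was not searched, so these shares do not cover all forms of that core. A match is a run of letters and not evidence of binding.

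The 57 genes differed widely in level, and most lay among the more abundant genes of these cells. Mean levels over the 9 libraries ran from 1.45 FPKM for Tfeb to 880 FPKM for the carboxypeptidase gene Ctsz among the 56 genes that reached a mean of 1 FPKM and were tested. Their median was 33.0 FPKM. Ranked from the most abundant of the 11802 tested genes, they ran from 44 (Ctsz) to 10946 (Tfeb), with a median rank of 1533.5. Of all 57 genes, 16 were at 100 FPKM or above and 13 were under 10. Ctsz, Ctsd, Ctsk and Psap alone made up 42.5% of the summed level. The proteases summed to 3290 ± 302 FPKM in control (SD, n = 3), more than the 6 other classes together, followed by the membrane proteins at 634 ± 29.8 and the V-ATPase at 625 ± 24.9. Ctsh, an aminopeptidase cathepsin, was the gene that was not tested, with at most 0.904 FPKM in any library.

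**Figure D1:**
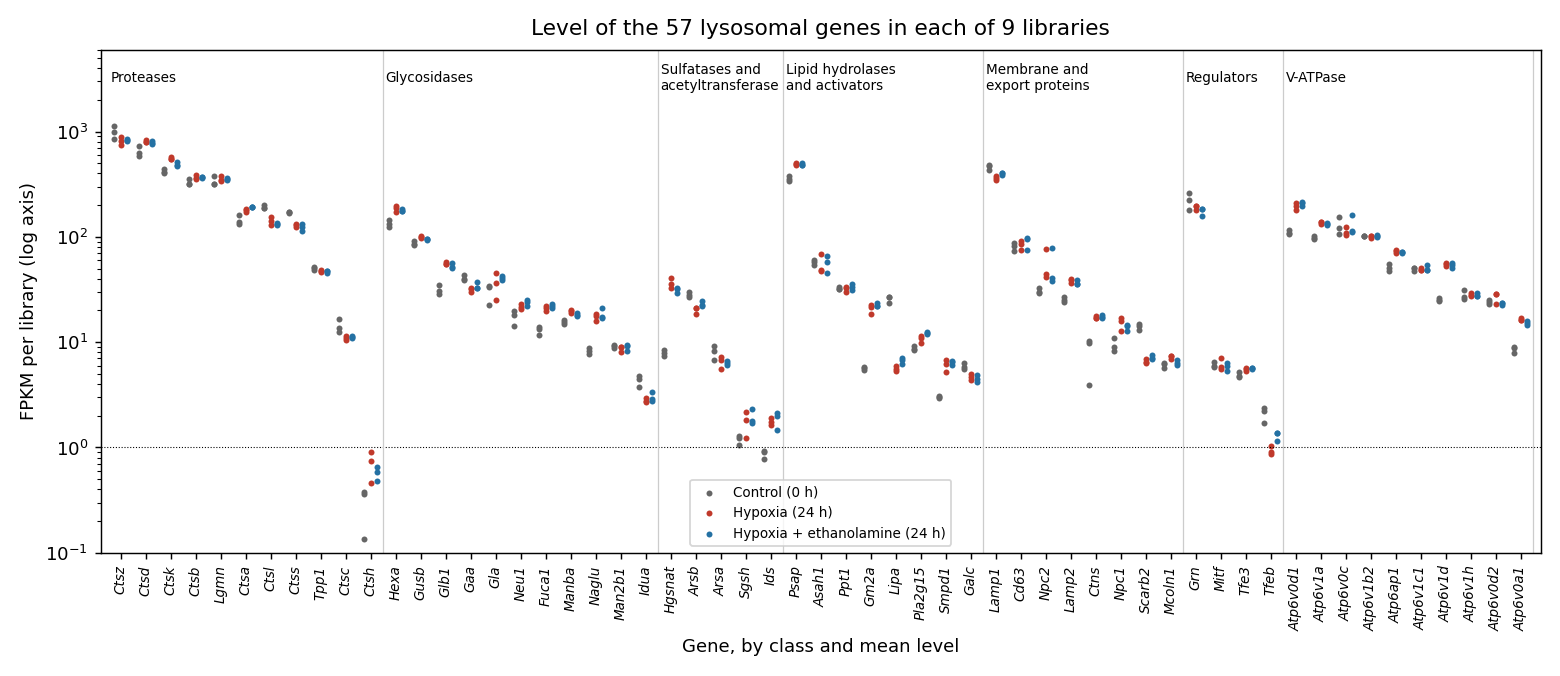
FPKM of each gene in each of the 9 libraries on a log axis, by class and mean level; points are libraries, coloured by group, and the dotted line marks 1 FPKM. Proteases reach the highest levels, with Ctsz at 751 to 1128 FPKM, and Ctsh lies under 1 FPKM in every library.

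Hypoxic cells were first set against the controls. Lysosomal genes moved in both directions. Most glycosidases rose, 5 V-ATPase genes rose and none fell, and as many proteases rose as fell. The largest changes were in lipid and heparan sulfate breakdown, where the acid lipase gene Lipa fell to 5.62 FPKM from 25.8, and Hgsnat and Gm2a rose 4.61-fold and 3.69-fold. In limma, with Benjamini-Hochberg adjustment over 11802 genes and a threshold of 0.05, 26 of the 56 tested genes rose and 11 fell. Over all tested genes 59.4% were called, 24.7% higher and 34.7% lower, so the share called among the 56 (66.1%) was near the background. An unadjusted p under 0.05 was reached by 41 of the 56, against 63.3% of all tested genes, and 36 of the 56 had a log2 change above 0, against 44%. The median log2 change of the 56 was 0.18, against -0.09 over all tested genes. All log2 changes were taken after adding 0.5 to each FPKM value, and so are understated for low genes. The 3 hypoxia libraries lay wholly above the 3 controls for 28 of the 56 genes and wholly below for 12, against 27.3% and 37.7% of all genes.

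**Figure D2:**
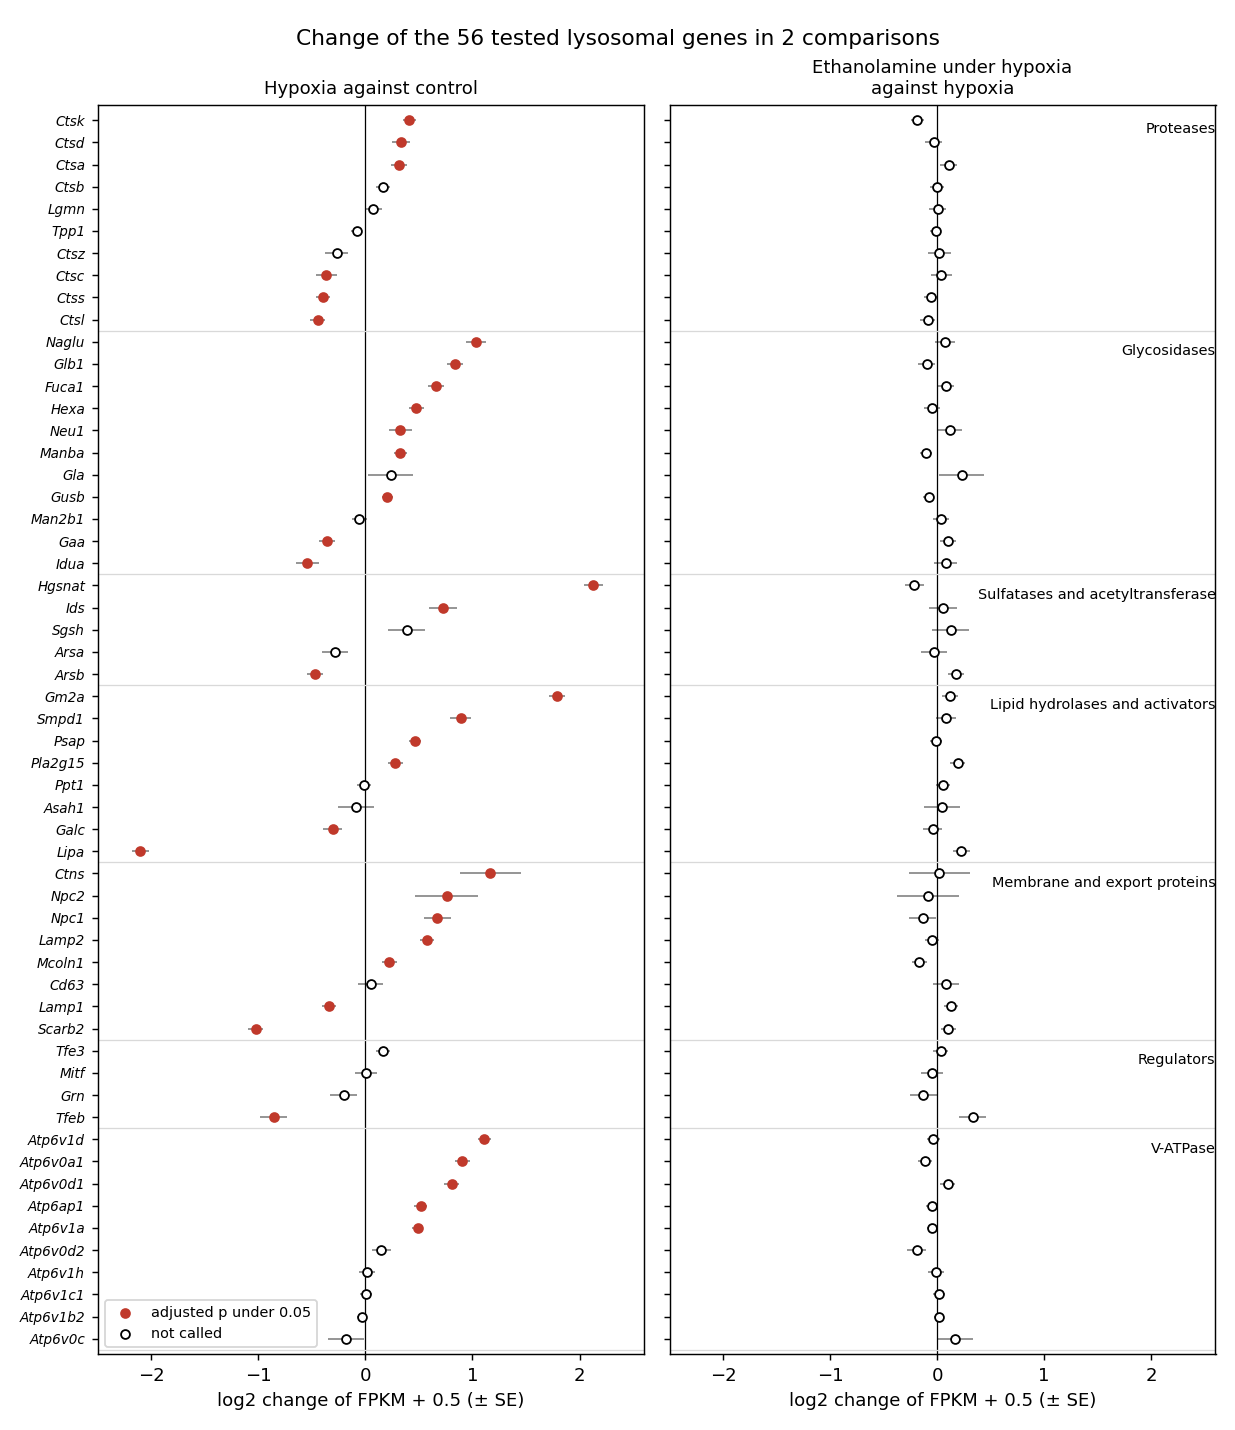
Log2 change of FPKM + 0.5 with its standard error for the 56 tested genes, by class, for hypoxia against control and for ethanolamine under hypoxia against hypoxia; filled points passed an adjusted p of 0.05. Against control the changes run from -2.10 (Lipa) to 2.13 (Hgsnat), and with ethanolamine every point is open and lies between -0.21 and 0.33.

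Among the proteases 3 rose, 3 fell and 4 did not pass, and the median log2 change was -0.0041, or 0.094 with median-of-ratios scaling. The share called (60%) was near the 59.4% over all tested genes. Ctsk, a collagen-degrading cysteine cathepsin best known from osteoclasts, was 437, 405 and 409.9 FPKM in the 3 controls and 573, 546 and 546 in hypoxia. Its hypoxia libraries all lay above its controls, and it rose by a log2 change of 0.41 (SE 0.06, limma adjusted p = 0.000321). Ctss, a cysteine cathepsin that trims the invariant chain of MHC class II, was 171, 167 and 171 FPKM in control and 124, 128 and 134 in hypoxia. Its groups did not overlap either, in the opposite direction, and it fell with a log2 change of -0.40 (SE 0.07, limma adjusted p = 0.000627). Ctsl, which degrades proteins broadly in the lysosome, was 199, 187 and 189.6 FPKM in control and 129, 142 and 153 in hypoxia, a log2 change of -0.44 (SE 0.07, limma adjusted p = 0.000451). All of its hypoxia libraries were below its controls.

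Ctsk and Ctss are neighbours. In GENCODE M21 on GRCm38, Ctsk spans chr3:95499256-95509362 and Ctss chr3:95526786-95556403, both on the plus strand and 17424 bases apart. The ratio of Ctsk to Ctss FPKM within a library was 2.55, 2.43 and 2.40 in control, 4.61, 4.25 and 4.09 in hypoxia, and 3.82, 3.86 and 4.21 with ethanolamine. It was higher in each of the 6 hypoxic libraries than in any control. This follows from Ctsk lying above and Ctss below the controls in both hypoxic groups, so it is no separate result.

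Of the remaining proteases, 3 passed. The aspartic protease gene Ctsd, the second most abundant of the 57, was 722, 580.2 and 628 FPKM in control and 799, 789.6 and 829.7 in hypoxia (log2 change 0.33, limma adjusted p = 0.00738). That call was lost with quantile scaling (0.13, limma adjusted p = 0.189). Ctsa rose by 0.31 and Ctsc, the dipeptidyl peptidase that activates granule serine proteases, had a change of -0.36. Ctsz, the most abundant, was 1128, 848 and 998 FPKM in control and 814, 751 and 893 in hypoxia, and its ranges overlapped (log2 change -0.27, SE 0.11, limma adjusted p = 0.0565). Ctsz did pass in limma, as a fall, without control library 2 (-0.38, adjusted p = 0.00816) or hypoxia library 3 (-0.33, adjusted p = 0.0419), with quantile scaling (-0.44, adjusted p = 0.00602) and when rescaled to exclude mitochondrial and rRNA-like transcripts (-0.30, adjusted p = 0.0137). Ctsb (0.16, limma adjusted p = 0.0579), the asparaginyl endopeptidase gene Lgmn (0.07) and the tripeptidyl peptidase gene Tpp1 (-0.08) did not pass either. Of these, Ctsb passed in limma as a rise without control library 1 (0.22, adjusted p = 0.0176) and with median-of-ratios scaling (0.26, adjusted p = 0.00599), and was at -0.010 with quantile scaling. The untested Ctsh was 0.361, 0.135 and 0.376 FPKM in control and 0.745, 0.465 and 0.904 in hypoxia.

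Glycosidases, which remove terminal sugars from glycoproteins, glycolipids and glycosaminoglycans, rose in 7 of 11 cases and fell in 2, with a median log2 change of 0.33. In this class 81.8% were called, against 59.4% of all tested genes (24.7% higher and 34.7% lower). Naglu, which removes N-acetylglucosamine from heparan sulfate, was 8.22, 8.79 and 7.77 FPKM in control and 18.6, 15.99 and 17.6 in hypoxia. Its groups were far apart (log2 change 1.03, SE 0.09, limma adjusted p = 1.54e-05). Glb1, the lysosomal beta-galactosidase, was 34.7, 30.4 and 28.95 FPKM in control and 55.5, 57.7 and 55.7 in hypoxia, again with no overlap (log2 change 0.84, SE 0.08, limma adjusted p = 1.38e-05). The fucosidase gene Fuca1 rose from 13.0 ± 1.13 to 20.8 ± 1.14 FPKM (SD, n = 3; log2 change 0.66, limma adjusted p = 6.78e-05). Hexa, the alpha subunit of beta-hexosaminidase and the most abundant glycosidase gene, rose from 133 ± 10.2 to 185 ± 12.9 FPKM (log2 change 0.48, limma adjusted p = 0.000429).

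Manba (0.33), the sialidase gene Neu1 (0.33) and the glucuronidase gene Gusb (0.21) rose by smaller amounts. Of these, Neu1 (limma adjusted p = 0.0285) lost its call in 5 of 19 other settings, among them without control library 2 (0.20, limma adjusted p = 0.0624), hypoxia library 1 (0.33, limma adjusted p = 0.0648) or hypoxia library 3 (0.28, limma adjusted p = 0.0891). The iduronidase gene Idua fell from 4.33 ± 0.551 to 2.80 ± 0.118 FPKM and the glycogen-degrading glucosidase gene Gaa from 40.7 ± 2.58 to 31.7 ± 1.37 (log2 changes -0.54 and -0.36, limma adjusted p = 0.00168 and 0.00249). Gla and the mannosidase gene Man2b1 did not pass. Gla was 33.0, 33.8 and 22.8 FPKM in control and 45.7, 36.6 and 24.95 in hypoxia, so that library 3 was the lowest in both groups. Without hypoxia library 3 Gla passed in limma (0.47, adjusted p = 0.0479), and over all left-out libraries its log2 change ran from 0.039 to 0.47.

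Among the sulfatases and the acetyltransferase, 2 of 5 rose and 1 fell, with a median log2 change of 0.39. With a filter of 5 FPKM, which drops members, the median was -0.28. The share called (60%) was near the 59.4% over all tested genes. Hgsnat, the membrane acetyltransferase that adds an acetyl group to heparan sulfate before Naglu can act, was 7.82, 7.45 and 8.49 FPKM in control and 41.0, 32.8 and 35.6 in hypoxia. The lowest hypoxia library was several times the highest control, and the log2 change of 2.13 (SE 0.09, limma adjusted p = 1.79e-07) was the largest rise among the 56 genes. Ids, the iduronate sulfatase, rose from 0.867 ± 0.0853 to 1.76 ± 0.136 FPKM (SD, n = 3), a log2 change of 0.73 (limma adjusted p = 0.00111). Its controls (0.897, 0.933 and 0.771 FPKM) all lay under the filter of 1 FPKM. Ids entered the test only through its higher level in the hypoxic groups, so its call is not separate from the filter. Arsb, which removes sulfate from dermatan and chondroitin sulfate, was 29.9, 28.1 and 26.7 FPKM in control and 18.7, 20.9 and 21.2 in hypoxia, a fall with a log2 change of -0.47 (SE 0.07, limma adjusted p = 0.000493). The sulfamidase gene Sgsh (0.39) and the sulfatide-degrading Arsa (-0.28) did not pass. Sgsh passed in limma as a rise without hypoxia library 1 (0.56, adjusted p = 0.0125) and with median-of-ratios scaling (0.46, adjusted p = 0.0426). Arsa passed as a fall without control library 2 (-0.39, limma adjusted p = 0.016) and when rescaled as above (-0.32, limma adjusted p = 0.0308).

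The enzymes of heparan sulfate breakdown thus did not all move the same way, since Idua fell. Naglu, Hgsnat and Ids rose, Ids from controls under the filter of 1 FPKM. Sgsh did not pass, with a log2 change of 0.39, which does not set it apart from the risers. The glucuronidase gene Gusb, which acts on the same chain, rose by 0.21 on the log2 scale. Naglu lies next to the V-ATPase gene Atp6v0a1 on chromosome 11, with 6293 bases between them in GENCODE M21, and both rose. Other neighbouring members did not both rise. Ctsk and Ctss went opposite ways. Gaa fell while Sgsh, 57971 bases away, did not pass, and Smpd1 rose while Tpp1, 186422 bases away, did not pass.

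The lipid hydrolases and their activators held the largest fall and the second largest rise. Lipa, the acid lipase that frees cholesterol and fatty acids from lipoprotein lipids, was 23.6, 26.95 and 26.8 FPKM in control and 5.35, 5.92 and 5.58 in hypoxia. The groups were far apart, and Lipa fell with a log2 change of -2.10 (SE 0.08, limma adjusted p = 9.57e-08). Gm2a, the activator that lifts the ganglioside GM2 from the membrane for beta-hexosaminidase, was 5.86, 5.69 and 5.43 FPKM in control and 21.6, 18.7 and 22.4 in hypoxia. It rose by a log2 change of 1.79 (SE 0.08, limma adjusted p = 1.78e-07), with every hypoxia library more than 3 times any control. Smpd1, the acid sphingomyelinase, rose from 3.02 ± 0.0744 to 6.06 ± 0.841 FPKM (SD, n = 3; log2 change 0.89, limma adjusted p = 4.39e-05).

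Psap, the precursor of the saposins and the most abundant gene of the class, was 375, 340.0 and 350.4 FPKM in control and 495, 478 and 497 in hypoxia. Its hypoxia libraries all exceeded its controls (log2 change 0.46, SE 0.06, limma adjusted p = 0.000113). The phospholipase gene Pla2g15 rose by 0.28 (limma adjusted p = 0.0072). Galc, which degrades galactosylceramide, had a log2 change of -0.31 (limma adjusted p = 0.0122), a call lost with median-of-ratios (-0.22, limma adjusted p = 0.0558) and quantile scaling (-0.19, limma adjusted p = 0.0852). The acid ceramidase gene Asah1 and the thioesterase gene Ppt1 did not pass. Asah1 was 54.0, 60.9 and 57.96 FPKM in control and 47.4, 48.1 and 69.1 in hypoxia, so its hypoxia libraries lay on both sides of the controls.

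The promoters of Gm2a and Lipa, which moved farthest in opposite directions among the genes with a RefSeq promoter, are printed beside that of Naglu, with ACGTG on either strand in capitals. Naglu holds ACGTG within a CACGTG, and neither Lipa nor Gm2a holds ACGTG in this window. The related form GCGTG was not searched, and it stands unmarked in Gm2a and, on the opposite strand, in Naglu.
Gm2a, chr11:55097735-55098034, plus strand: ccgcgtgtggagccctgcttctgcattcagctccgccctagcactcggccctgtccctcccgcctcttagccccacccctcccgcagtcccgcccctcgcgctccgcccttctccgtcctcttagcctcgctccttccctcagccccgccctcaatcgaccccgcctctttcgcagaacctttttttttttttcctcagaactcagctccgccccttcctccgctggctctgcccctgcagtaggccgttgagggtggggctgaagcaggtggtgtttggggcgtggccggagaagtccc
Lipa, chr19:34527425-34527724, minus strand: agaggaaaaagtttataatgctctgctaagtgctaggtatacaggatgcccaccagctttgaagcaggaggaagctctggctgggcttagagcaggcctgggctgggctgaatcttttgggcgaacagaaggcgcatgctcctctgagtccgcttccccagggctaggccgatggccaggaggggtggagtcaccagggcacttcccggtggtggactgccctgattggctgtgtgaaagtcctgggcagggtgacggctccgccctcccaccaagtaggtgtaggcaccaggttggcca
Naglu, chr11:101069844-101070143, plus strand: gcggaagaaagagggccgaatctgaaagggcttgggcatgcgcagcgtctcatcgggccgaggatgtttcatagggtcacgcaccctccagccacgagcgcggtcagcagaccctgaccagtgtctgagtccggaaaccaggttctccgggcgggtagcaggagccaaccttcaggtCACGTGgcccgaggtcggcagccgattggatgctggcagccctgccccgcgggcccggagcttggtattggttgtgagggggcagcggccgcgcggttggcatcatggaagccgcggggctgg

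**Figure D3:**
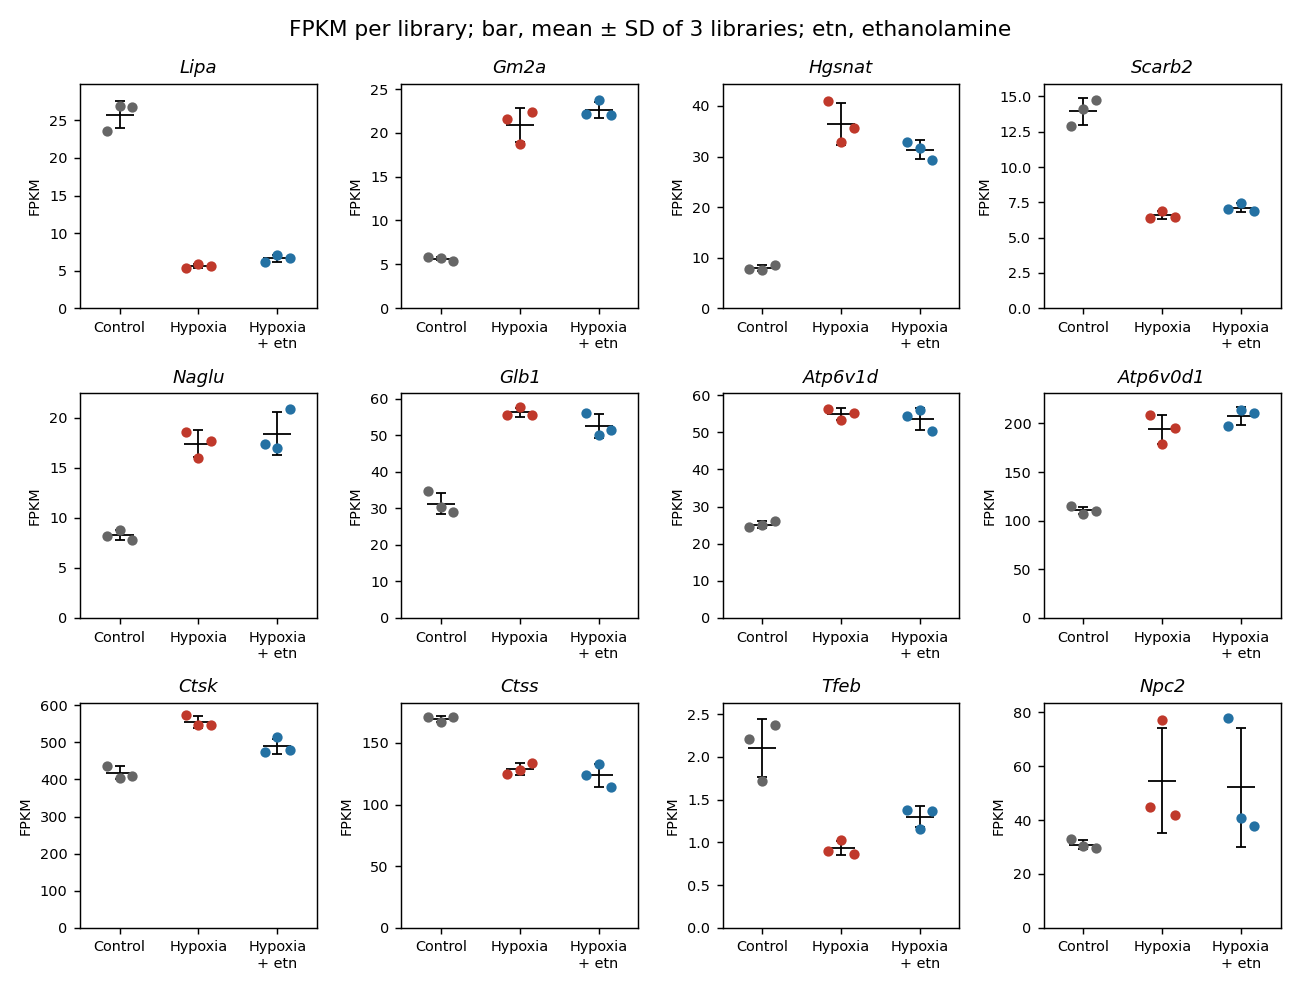
FPKM of 12 genes in each library, with the mean and SD of 3 libraries per group on a linear axis from 0. Lipa and Scarb2 fall and Gm2a, Hgsnat, Naglu, Glb1, Atp6v1d and Atp6v0d1 rise in both hypoxic groups; Npc2 has 1 high library in each (77.0 and 77.7 FPKM).

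Membrane and export proteins rose in 5 of 8 cases and fell in 2, with a median log2 change of 0.40. Of this class 87.5% were called, against 59.4% of all tested genes (24.7% higher and 34.7% lower). Scarb2, the membrane protein that carries glucocerebrosidase to the lysosome, was 12.9, 14.1 and 14.8 FPKM in control and 6.38, 6.91 and 6.48 in hypoxia. No hypoxia library came near a control, and Scarb2 fell with a log2 change of -1.03 (SE 0.07, limma adjusted p = 2.4e-06). Lamp1 and Lamp2, the main glycoproteins of the lysosomal membrane, went opposite ways. Lamp1, the more abundant, was 484, 429 and 466 FPKM in control and 365, 344 and 379 in hypoxia (limma log2 change -0.34, SE 0.07, adjusted p = 0.00171). Lamp2 rose from 25.3 ± 1.44 to 38.0 ± 1.64 FPKM (SD, n = 3; log2 change 0.58, limma adjusted p = 6.72e-05), and neither gene had overlapping groups.

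The other risers of the class carry cargo out of the lysosome. Ctns, the cystine exporter, was 3.93, 10.3 and 9.83 FPKM in control and 17.9, 16.8 and 17.1 in hypoxia, with control library 1 far below the other controls (log2 change 1.17, SE 0.29, limma adjusted p = 0.0063). Without control library 1 the log2 change was 0.75 (limma adjusted p = 2.69e-05). Npc1, the membrane protein of cholesterol export, rose from 9.38 ± 1.32 to 15.3 ± 2.14 FPKM (log2 change 0.67, limma adjusted p = 0.00129). Npc2, the soluble protein that hands cholesterol to Npc1, was 32.9, 30.2 and 29.5 FPKM in control and 44.8, 77.0 and 41.9 in hypoxia. Hypoxia library 2 stood far above the other hypoxia libraries in Npc2, and the call (log2 change 0.76, SE 0.29, limma adjusted p = 0.0493) was lost in 10 of 19 other settings. Without hypoxia library 2 its log2 change was 0.48 (limma adjusted p = 0.162), and leaving out hypoxia library 1, control library 1, 2 or 3, or supplemented library 2 ended the call too, with limma adjusted p from 0.0561 to 0.11. Mcoln1 rose by 0.22 (limma adjusted p = 0.0199), a call lost without hypoxia library 1 (0.20, limma adjusted p = 0.0632), hypoxia library 2 (0.21, limma adjusted p = 0.0533) or control library 3 (0.18, limma adjusted p = 0.0798), and when rescaled to exclude mitochondrial and rRNA-like transcripts (0.19, limma adjusted p = 0.0697). The tetraspanin gene Cd63 was 81.2 ± 7.41 and 83.9 ± 8.09 FPKM and did not pass.

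Of the 4 regulators, Tfeb alone passed the test, and it fell (25% called, against 59.4% of all tested genes). Tfeb was 2.21, 1.72 and 2.38 FPKM in control and 0.899, 1.02 and 0.869 in hypoxia (limma log2 change -0.86, SE 0.13, adjusted p = 0.000354). Every hypoxia library was below every control, at a level close to the filter of 1 FPKM. Its relatives Tfe3 (4.86 ± 0.265 and 5.49 ± 0.223 FPKM, limma adjusted p = 0.059) and Mitf (6.06 ± 0.370 and 6.10 ± 0.798 FPKM, limma adjusted p = 0.982) did not pass. Tfe3 did pass in limma, as a rise, without control library 1 (0.20, adjusted p = 0.0349) and with median-of-ratios (0.25, adjusted p = 0.00796) or quantile scaling (0.28, adjusted p = 0.00476). Grn, which encodes progranulin, the most abundant of the 4, was 260.0, 180.1 and 225.9 FPKM in control and 179, 196 and 198 in hypoxia, with overlapping ranges (log2 change -0.20, limma adjusted p = 0.2). Grn passed in limma as a fall without control library 2 (-0.34, adjusted p = 0.016) and with quantile scaling (-0.34, adjusted p = 0.0217), and was at -0.08 without control library 1.

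Of the 6 genes with TCACGTGA in the promoter, 5 rose and Gla did not pass, with a median log2 change of 0.32. Among those 5, Ctsd and Mcoln1 lost their call in at least 1 other setting. Of the 42 other tested genes with a promoter, 19 rose and 11 fell, with a median of 0.12. Over all tested genes 24.7% were higher and 34.7% lower, and calls among non-member genes with the core were not counted. For CACGTG the split was 7 higher and 3 lower of 14 genes, against 17 and 8 of 34 without it. These are counts over few genes, and no test was made of them.

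The V-ATPase has a membrane-embedded sector named V0, which carries protons, and a cytosolic sector named V1, which hydrolyses ATP. Among its 10 genes 5 rose and none fell, with a median log2 change of 0.32. The share called (50%) was below the 59.4% over all tested genes, of which 24.7% were higher and 34.7% lower. An unadjusted p under 0.05 added no further riser and no fall. Atp6v1d, the V1 rotor subunit, was 24.4, 24.99 and 26.0 FPKM in control and 56.3, 53.2 and 55.3 in hypoxia. The libraries of each group lay close together and far from the other group (log2 change 1.11, SE 0.06, limma adjusted p = 5.03e-07). Atp6v0a1, a V0 subunit of the proton path, was 9.03, 8.82 and 7.82 FPKM in control and 16.2, 16.9 and 16.3 in hypoxia (limma log2 change 0.91, SE 0.07, adjusted p = 4.26e-06). The accessory gene Atp6ap1 and the catalytic Atp6v1a rose by 0.52 and 0.49.

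Atp6v0d1 and Atp6v0d2 encode alternative d subunits of V0; the second is known from osteoclasts and macrophages. Atp6v0d1 was 115, 107 and 109.9 FPKM in control and 208, 178 and 196 in hypoxia, with no overlap (log2 change 0.81, SE 0.07, limma adjusted p = 1.02e-05). Atp6v0d2 was 25.3, 23.9 and 22.8 FPKM in control and 23.1, 28.7 and 28.5 in hypoxia, and its ranges overlapped (log2 change 0.15, SE 0.09, limma adjusted p = 0.181). It passed in limma, as a rise, without hypoxia library 1 (0.25, adjusted p = 0.0126) and with median-of-ratios (0.24, adjusted p = 0.031) or quantile scaling (0.25, adjusted p = 0.0333). The ratio of Atp6v0d1 to Atp6v0d2 was 4.46 to 4.82 in control and 6.22 to 9.03 in hypoxia. Atp6v1b2, Atp6v1c1 and Atp6v1h, all of V1, had log2 changes of -0.03, 0.0021 and 0.02, and Atp6v0c, the proton-binding ring of V0, was at -0.18 with overlapping ranges. Subunits of each sector thus fell on both sides of the threshold.

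**Figure D4:**
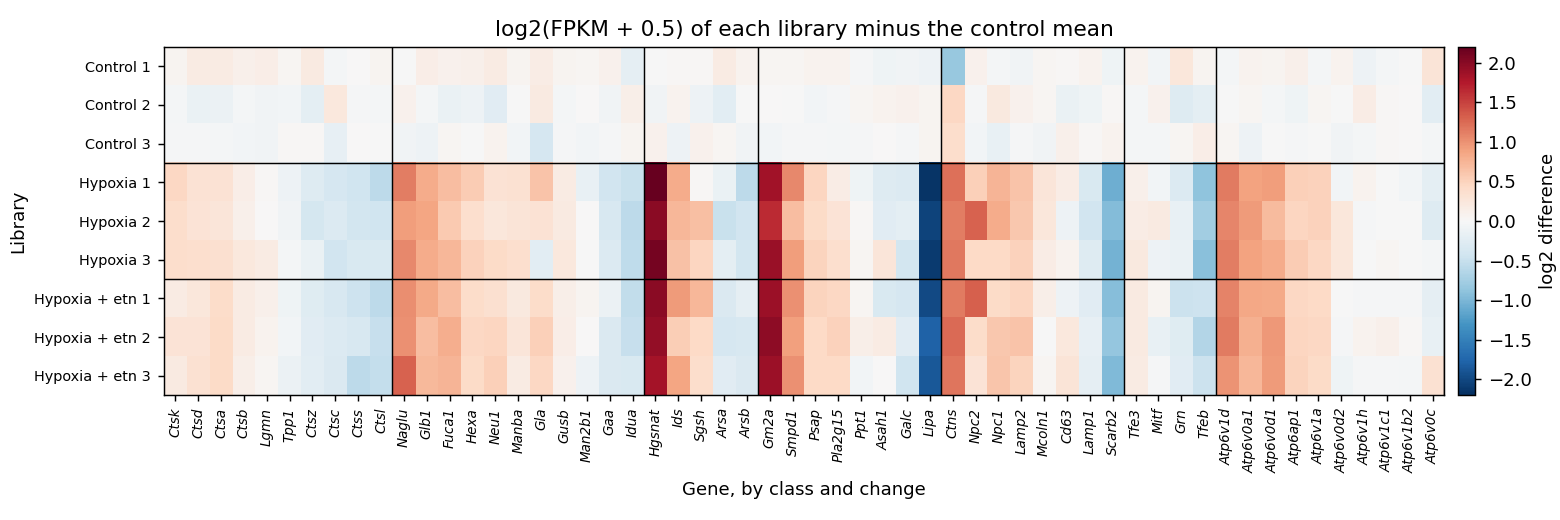
Log2(FPKM + 0.5) of each library minus the mean of the 3 controls for the 56 tested genes, by class and by their change in hypoxia; rows are libraries and colour runs from blue (lower) to red (higher). Hypoxic libraries with and without ethanolamine show the same bands, and single tiles stand out for Ctns in control library 1 and Npc2 in hypoxia library 2 and supplemented library 1.

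Lysosomal genes outside the 57 were read from a list of 58, of which 50 were tested. Of these 25 rose and 6 fell in hypoxia, with a median log2 change of 0.26. The share called (62%) was near the 59.4% over all tested genes, of which 24.7% were higher and 34.7% lower. The genes that rose included the Rag GTPase gene Rraga (log2 change 1.01) and Ostm1, a partner of the lysosomal chloride channel (0.91). The largest falls were those of the acid nuclease gene Dnase2a (-1.07), the sialic acid exporter gene Slc17a5 (-0.75), the V0 subunit gene Tcirg1 (-0.32) and Gnptab (-0.32), which starts the mannose 6-phosphate tag. Within this list 8 V-ATPase genes were tested, and 4 rose and 1 fell. Taking them with the 10 above, 9 of 18 V-ATPase genes rose and 1 fell (55.6% called, near that background), and their summed level was 985 ± 39.1 FPKM in control and 1206 ± 49.8 in hypoxia (SD, n = 3).

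Summed levels differed by class. Glycosidases summed to 389 ± 23.8 FPKM in control and 499.9 ± 17.1 in hypoxia (SD, n = 3), and lipid hydrolases with activators to 494 ± 12.7 and 625 ± 22.7. The 10 V-ATPase genes rose from 625 ± 24.9 to 792 ± 20.7 FPKM as a sum. Proteases were 3290 ± 302 and 3412 ± 145 FPKM, a difference within the spread of the libraries. Membrane proteins went from 634 ± 29.8 to 585 ± 2.30 FPKM, where the most abundant member, Lamp1, sets most of the sum. Library totals were not constant, at 324121 to 331189 FPKM in control and 345067 to 350112 in hypoxia. As shares of that total, glycosidases held 0.119% in control and 0.144% in hypoxia. Lipid hydrolases with activators held 0.151% and 0.180%, and the V-ATPase 0.191% and 0.228%. Proteases held 1.004% and 0.983%, and membrane proteins 0.194% and 0.169%. All 57 genes together held 1.74 ± 0.150% of the library's FPKM in control and 1.78 ± 0.0577% in hypoxia.

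Most genes were steady within a group. For the 56 tested genes the largest ratio of highest to lowest library in any group had a median of 1.18. It reached 1.5 in 4 genes, namely Gla, Sgsh and Npc2 in hypoxia and Ctns in control, and Npc2 also did so with ethanolamine (37.9 to 77.7 FPKM).

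Supplemented and unsupplemented hypoxic cells share the labelled oxygen and time, and differ by ethanolamine. None of the 56 genes passed in limma, against 0.568% of all tested genes (0.119% higher and 0.449% lower). An unadjusted p under 0.05 was reached by 7 of the 56, against 14.7% of all. The count of genes passing was 0 in each of the 19 other settings. The log2 change was above 0 for 31 of the 56, against 53.3% of all. Changes were small, from -0.21 (Hgsnat) to 0.33 (Tfeb) on the log2 scale, with a median of 0.02 against 0.01 over all genes. Supplemented libraries lay wholly above the hypoxia libraries for 6 genes and wholly below for 5, against 10.5% and 11.2% of all tested genes, so these counts were near the background. A missed threshold with 3 libraries a group does not show that levels were equal.

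The 6 genes with the smallest p are given by their values. Ctsk was 573, 546 and 546 FPKM in hypoxia and 474, 513 and 479.8 with ethanolamine, all below (log2 change -0.18, SE 0.06, limma adjusted p = 0.214). Lipa was 5.35, 5.92 and 5.58 FPKM in hypoxia and 6.15, 7.12 and 6.70 with ethanolamine, all above and still far under the controls (log2 change 0.22, SE 0.08, limma adjusted p = 0.24). Pla2g15, a phospholipase that acts on phosphatidylethanolamine among other lipids, was 9.82, 10.9 and 11.4 FPKM in hypoxia and 12.2, 12.6 and 12.1 with ethanolamine (log2 change 0.19, SE 0.07, limma adjusted p = 0.257). Its supplemented libraries were all above the hypoxia libraries.

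Tfeb was 0.899, 1.02 and 0.869 FPKM in hypoxia and 1.38, 1.16 and 1.37 with ethanolamine, without overlap (log2 change 0.33, SE 0.13, limma adjusted p = 0.283). Mcoln1 was 7.21 ± 0.291 FPKM in hypoxia and 6.36 ± 0.323 with ethanolamine (SD, n = 3; log2 change -0.17, limma adjusted p = 0.307). Arsb was 20.3 ± 1.38 and 22.97 ± 1.37 FPKM (log2 change 0.18, limma adjusted p = 0.318). For Ctsk, Lipa, Pla2g15, Tfeb, Mcoln1 and Arsb the direction was kept in each setting that gave a value, and none passed in any.

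By class, the median log2 change with ethanolamine was 0.07 for glycosidases and for lipid hydrolases, 0.05 for sulfatases, -0.01 for membrane proteins and for proteases, and -0.02 for the V-ATPase. The summed level of all 57 genes was 6185 ± 196 FPKM in hypoxia and 6141 ± 79.8 with ethanolamine (SD, n = 3). Library totals were 345067 to 350112 and 350298 to 370322 FPKM. As a share of the total the 57 genes held 1.783 ± 0.0577% in hypoxia and 1.705 ± 0.0364% with ethanolamine. Npc2 was 77.7, 40.8 and 37.9 FPKM with ethanolamine, so supplemented library 1 and hypoxia library 2 shared a high value.

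Ethanolamine under hypoxia against the untreated control shares its libraries with both comparisons above. In limma 25 of the 56 genes were higher and 13 lower, against 24.1% and 34.4% of all tested genes (58.5% in either direction). An unadjusted p under 0.05 was reached by 42, against 62.6%, and 35 had a log2 change above 0, against 44.1%. Lipa had a log2 change of -1.88, Scarb2 -0.92, Gm2a 1.91, Hgsnat 1.92, Naglu 1.10 and Atp6v1d 1.08 (limma adjusted p at most 1.19e-05). For hypoxia alone the values were -2.10, -1.03, 1.79, 2.13, 1.03 and 1.11. Tfeb was at -0.53 with the supplement and -0.86 without it, both relative to control.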

How the data were processed

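The deposited table gives FPKM values, which the authors computed. Reads were placed on GRCm38 (mm10), as the submitters' processing notes name it; no source here gives the aligner or quantifier. Per the labels' protocols, RNA came from RNeasy columns and 1.3 µg entered a SMARTER mRNA kit. Titles set the groups; the controls' treatment tag names adipogenic differentiation, which goes against title and design, and was ignored. The members and lists were chosen with earlier results of these data known. FPKM are relative to the library total, so a rise of abundant transcripts lowers the rest. Of 55335 genes, 11802 averaged 1 FPKM or more and entered limma-trend (limma 3.58.1, R 4.3.3) on log2(FPKM + 0.5), with 1 mean per group, no covariates, all 9 libraries, two-sided contrasts and Benjamini-Hochberg adjustment at 0.05. The code was tested on simulated data. Alternatives changed the pseudocount (0.1 or 1), the filter (none or 5 FPKM), the scaling (median-of-ratios, quantile, or rescaling to exclude mitochondrial and rRNA-like transcripts) and the model (replicate number as a block, each pair of groups alone, no trend), or left out 1 library. Relative depth came from the modal ratio of low values, shared by 0.777% to 1.41% of them per pair of libraries. Positions and overlaps are from GENCODE M21. Strand use in counting is unknown, so genes overlapping another on the opposite strand are uncertain. Among them are Ppt1 with Cap1 (176 FPKM), Ctsa with Neurl2, Ctsb with Fdft1, Ctsz with Nelfcd and Npc1 with Rmc1. Others are Sgsh (1.62 FPKM) with Card14 (1.34) and Idua (3.37) with Dgkq (1.01). Glb1 overlaps Tmppe on the same strand. By rule, full values go to the 3 largest called changes and the most abundant gene per class, the d subunits, and the 6 smallest p with ethanolamine. Other genes given by library, and the printed promoters, were chosen after their values were seen. Within the wider lysosomal list, a few genes are not reported here.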

Additional observations from a re-analysis of the deposited data

How the results depend on the processing

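In hypoxia against control, 32 of the 37 called genes kept their call in each of the 19 other settings that tested them (a filter of 5 FPKM drops low genes such as Tfeb), and none of the 37 changed direction; Ctsd, Neu1, Galc, Npc2 and Mcoln1 lost it in at least 1. Of the 19 genes not called, 8 passed in at least 1 setting: Ctsb, Ctsz, Gla, Sgsh, Arsa, Tfe3, Grn and Atp6v0d2. The counts of called members in that comparison stayed within 1.5 times in every setting. Median-of-ratios scaling, which moved the median of all genes from -0.09 to 0.0041, called 40 members, 30 higher and 10 lower. With libraries left out, 35 to 38 members were called. A filter of 5 FPKM, which tests fewer genes, gave 4671 called genes in hypoxia against control, and 4603 in the supplemented cells against control. For ethanolamine against control, 8 members were lower with median-of-ratios scaling, against 13.

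Class medians in hypoxia against control moved to -0.28 (sulfatases) and 0.0032 (regulators) with a filter of 5 FPKM, which drops members. They moved to 0.094 (proteases), 0.42 (glycosidases), 0.495 (membrane) and 0.41 (V-ATPase) with median-of-ratios scaling, to 0.42 (glycosidases), 0.53 (membrane) and 0.37 (V-ATPase) with quantile scaling, and to 0.28 (V-ATPase) when rescaled to exclude mitochondrial and rRNA-like transcripts. With libraries left out they ran from 0.35 to 0.43 for membrane proteins and 0.29 to 0.36 for the V-ATPase. For ethanolamine against hypoxia the medians were -0.084 (proteases) with quantile scaling, and -0.054 (proteases), 0.028 (glycosidases), 0.024 (lipid) and -0.069 (V-ATPase) when rescaled. With libraries left out they ran from 0.011 to 0.074 for glycosidases, -0.025 to 0.17 for sulfatases and 0.023 to 0.13 for lipid hydrolases. The cause was not tested.

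Over all genes, ethanolamine against hypoxia gave 67 calls. It gave 40 without a filter, 6 with only these groups fitted, and 0 with the replicate block (0 members). It gave 38, 34 and 23 without control library 1, 2 or 3, 23, 3 and 0 without hypoxia library 1, 2 or 3, and 22, 5 and 12 without supplemented library 1, 2 or 3. Same-numbered libraries had correlations of deviations from -0.12 to 0.11, and differently numbered libraries from -0.16 to 0.16. No pairing by replicate number was visible, but these values cannot show whether the libraries were paired by design. The block called 37 members in hypoxia against control, 25 higher and 12 lower; with it Arsa was gained (limma adjusted p = 0.0227) and Npc2 lost (limma adjusted p = 0.0544).

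Directions that reversed, all in genes that were not called, were with median-of-ratios scaling those of Tpp1 (0.015), Man2b1 (0.038), Asah1 (0.0074), Ppt1 (0.084) and Atp6v1b2 (0.068). With quantile scaling they were those of Ctsb (-0.010), Lgmn (-0.089), Tpp1 (0.016), Man2b1 (0.057) and Ppt1 (0.088), and when rescaled those of Mitf (-0.029), Atp6v1c1 (-0.033) and Atp6v1h (-0.020). With libraries left out the log2 change ran from -0.27 to 0.0031 for Asah1, -0.037 to 0.031 for Ppt1, -0.025 to 0.12 for Cd63, -0.094 to 0.065 for Mitf, -0.020 to 0.014 for Atp6v1c1 and -0.042 to 0.098 for Atp6v1h. Absolute depth is unknown, so the precision of genes near 1 FPKM, such as Tfeb, Ids and Sgsh, cannot be given from counts.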
